A study of Mus musculus with 56 samples.

Results

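The binding data described here are those at 7 genes of the MHC class II pathway in mouse bone marrow-derived macrophages (BMDMs): H2-Aa, H2-Ab1, H2-Eb1, H2-DMa, H2-DMb1, Cd74 and Ciita. A peak belonged to the set when the annotation in its peak list named 1 of these genes as the nearest. That gave 879 peaks of 1610519, and 7 genes of the 20352 that had any peak in the series. Ciita held 276 of the peaks, Cd74 169, H2-Aa 136, H2-DMb1 89, H2-Ab1 85, H2-DMa 68 and H2-Eb1 56.

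MHC class II molecules show peptides from ingested material to CD4+ T cells. Each is a pair of an alpha and a beta chain. The invariant chain, Cd74, holds the new pair until it reaches an endosome, and the H2-DM pair then exchanges the last piece of the invariant chain for a peptide. The chain, invariant chain and H2-DM genes depend on Ciita, a transactivator that binds no DNA itself and acts through the RFX, CREB and NF-Y factors on the X and Y boxes of their promoters. Dendritic cells and B cells carry class II at all times, whereas macrophages raise it under interferon gamma and, in the mouse, IL-4.

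The samples were wild-type (Wt) BMDMs from mice of 8 to 12 weeks, differentiated for 6 days in L929 supernatant, the source of MCSF. The 56 ChIP-seq samples formed 28 groups of 2 replicates. In the first experiment cells were left untreated or given IL-4 (20 ng/ml) for 1 hr, with antibodies to the deacetylases HDAC1, HDAC2 and HDAC3, to p300, PU.1 and H3K27Ac, and to RNAPII-pS5 and RNAPII-pS2. In the second experiment RNAPII-pS5, RNAPII-pS2 and p65 were profiled in 4 conditions: no cytokine (ctrl/ctrl), IL-4 for 24 hr (IL-4 PT/ctrl), LPS (100 ng/ml) for 1 hr (ctrl/LPS), and the same IL-4 pretreatment with LPS added for the last 1 hr (IL-4 PT/LPS). All 4 conditions share the wild-type background. RNAPII-pS5 is the initiating and pausing form of RNA polymerase II, RNAPII-pS2 the elongating form, H3K27Ac a mark of active promoters and enhancers, PU.1 the lineage factor of macrophages, p300 an acetyltransferase of active enhancers, HDAC1 to HDAC3 histone deacetylases, and p65 a subunit of NF-kB.

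A peak score was on the -log10 scale of the peak caller, except for H3K27Ac, where it was a normalised tag signal. The gene score is the sum of the scores of all peaks of a sample assigned to the gene. The region score is the highest score among overlapping peaks. Differences are log2 differences of these scores with their SE, from limma over all genes or regions, and a call is a Benjamini-Hochberg adjusted p of at most 0.05. A missing peak was set to the lowest score of its antibody. Where a whole group lacked a peak, the size of a difference depends on that floor, and for the 7 genes the scores and the adjusted p are given in its place. With 2 samples against 2, an exact permutation test cannot go below 0.333, so only the limma fit across all features could make a call.

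Peak numbers ran from 8440 to 71027 per sample, and for p65 from 9556 to 38955. The untreated replicate 1 sample of p300 had 44787 peaks against 66710 to 69360 in the other 3, and its typical score lay 1.16 below the mean of the 4 on the log2 scale before centring. For p65 the same shift was 0.50 to 0.81 above the mean in the LPS samples and 0.53 to 0.79 below it in the others. In the 1 hr RNAPII-pS2 lists the peak names carried the opposite condition to the sample labels. The labels were followed, and no direction is read from that comparison. The labels also give the HDAC3 samples the antibody catalogue number of H3K27Ac. All 8 macrophage markers (among them Csf1r, Cd68 and the F4/80 gene) had RNAPII-pS5 peaks in every sample, and in RNAPII-pS5 none was seen at Zbtb46, Cd209a, Pax5, Ebf1 or Cd3e. Of the lists these come from, 4 of 6 dendritic cell, 4 of 5 T cell and 3 or 4 of 6 B cell markers had such a peak, and all 6 dendritic cell markers had H3K27Ac.

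Of the promoters, 3 are shown, since they hold the letters of the X and Y boxes in order. The RefSeq promoter set used here (build GRCm38.p6, equal to mm10) matched 4 of the 7 genes: H2-Aa, H2-Eb1, H2-DMa and H2-DMb1. Each sequence is the 150 bases before the start site on the strand of the gene, and capitals mark GNAACT (part X1 of the X box), TGATGATG or TGACGTCA (part X2) and TGATTGG (the Y box), searched on the gene strand. X1 and X2 can share a base. The stretches are chr17:34153041-34153190 for H2-DMb1 (+ strand), chr17:34287824-34287973 for H2-Aa (- strand) and chr17:34305717-34305866 for H2-Eb1 (+ strand).
H2-DMb1: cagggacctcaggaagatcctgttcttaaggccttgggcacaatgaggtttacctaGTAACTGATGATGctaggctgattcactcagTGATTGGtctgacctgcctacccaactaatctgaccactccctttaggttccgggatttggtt
H2-Aa: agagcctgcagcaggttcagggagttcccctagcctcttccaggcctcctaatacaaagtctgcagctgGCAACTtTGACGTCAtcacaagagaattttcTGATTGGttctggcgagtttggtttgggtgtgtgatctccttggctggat
H2-Eb1: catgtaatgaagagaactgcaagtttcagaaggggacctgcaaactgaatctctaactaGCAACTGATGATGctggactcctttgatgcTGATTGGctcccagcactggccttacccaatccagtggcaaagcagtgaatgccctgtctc
The Y box began 31 bases after X1 in H2-DMb1 and H2-Aa and 30 bases after it in H2-Eb1. In windows of 300 bases around all 32851 RefSeq starts, X1 followed by Y at a distance of 20 to 40 bases occurred in 63, or 0.192%. Neither of the 2 H2-DMa windows held the pair.

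The distal regions on which the p300 and p65 results turn are shown next, as the 200 bases around the centre of the region on the + strand of GRCm38.p6. Capitals mark an NF-kB motif (GGG, 2 free bases, TT, 1 free base, CC), TTCNNNNGAA (a STAT6 motif), GAGGAAG (a PU.1 motif), TGATGATG (X2) and TGATTGG (Y), searched on both strands, so the reverse complements are capitals too. The STAT6 and PU.1 motifs can overlap. The windows are chr16:10470667-10470866 (Ciita -9.3 kb, intergenic), chr16:10496156-10496355 (Ciita 6.5 kb, in intron 1 of NM_001243761), chr16:10498227-10498426 (Ciita 8.5 kb, in the same intron), chr16:10516168-10516367 (Ciita 26.5 kb, in intron 12) and chr17:34261643-34261842 (H2-Ab1 -1.5 kb, intergenic), each distance being from the nearest annotated start.
Ciita -9.3 kb: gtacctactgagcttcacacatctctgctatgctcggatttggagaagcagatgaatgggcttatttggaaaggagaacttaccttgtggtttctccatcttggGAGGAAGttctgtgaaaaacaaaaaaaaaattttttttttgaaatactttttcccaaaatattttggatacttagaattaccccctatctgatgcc
Ciita 6.5 kb: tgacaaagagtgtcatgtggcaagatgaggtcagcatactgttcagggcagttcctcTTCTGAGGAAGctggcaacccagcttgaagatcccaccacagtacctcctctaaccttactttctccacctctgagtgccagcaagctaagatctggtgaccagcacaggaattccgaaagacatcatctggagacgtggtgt
Ciita 8.5 kb: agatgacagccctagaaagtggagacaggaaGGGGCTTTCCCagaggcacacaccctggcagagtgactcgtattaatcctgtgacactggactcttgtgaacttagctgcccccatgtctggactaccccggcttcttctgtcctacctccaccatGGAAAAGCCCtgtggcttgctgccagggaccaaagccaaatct
Ciita 26.5 kb: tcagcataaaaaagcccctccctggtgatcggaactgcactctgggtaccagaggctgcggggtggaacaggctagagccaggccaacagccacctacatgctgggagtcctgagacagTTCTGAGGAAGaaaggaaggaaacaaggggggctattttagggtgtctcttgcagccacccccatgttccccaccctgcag
H2-Ab1 -1.5 kb: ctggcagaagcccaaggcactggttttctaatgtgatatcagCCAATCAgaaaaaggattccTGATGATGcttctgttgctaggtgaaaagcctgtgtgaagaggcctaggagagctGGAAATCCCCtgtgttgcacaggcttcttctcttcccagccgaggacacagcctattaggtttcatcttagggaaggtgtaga
The STAT6 and PU.1 letters coincided in one stretch at both the 6.5 kb and the 26.5 kb windows of Ciita. Of all p65 regions in windows of this length, 11.7% held the NF-kB motif, 8.42% the STAT6 motif, 19.2% the PU.1 motif and 22.9% the AP-1 motif TGANTCA. Of the 24 p65 regions at the 7 genes, 6 held the NF-kB motif, 2 the STAT6 motif, 8 the PU.1 motif and 4 the AP-1 motif. Of all p300 regions, 3.82% held the NF-kB motif, 10.3% the STAT6 motif, 24.0% the PU.1 motif and 17.0% the AP-1 motif. Of the 30 p300 regions at the 7 genes, 6, 3, 10 and 5 did, in the same order. How often the STAT6 and PU.1 letters coincide over all regions was not counted.

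All 7 genes are given by RefSeq on GRCm38.p6. Ciita lies at chr16:10480014-10531064, with starts at 10480072 (NM_001243760), 10488178 (NM_007575) and 10489781 (NM_001243761). H2-DMa (chr17:34119693-34139101), H2-DMb1 (chr17:34153191-34160229), H2-Ab1 (chr17:34263227-34269418), H2-Aa (chr17:34282744-34287823) and H2-Eb1 (chr17:34305867-34316674) are neighbours in the class II region, and Cd74 lies at chr18:60803849-60812652.

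The PU.1, p300, HDAC1, HDAC2, HDAC3 and p65 peaks at the 7 genes merged into 50 elements, 16 at Ciita, 10 at Cd74, 6 each at H2-DMa and H2-DMb1, 5 at H2-Aa, 4 at H2-Eb1 and 3 at H2-Ab1. Over all samples and conditions together, each of the 6 factors had a peak at 5 of them. These were the Ciita -3.9 kb and 2.5 kb elements, the Cd74 -14.4 kb and 3.4 kb elements and the H2-Ab1 -5.5 kb element. The peaks of an element need not share a condition, so binding at the same time is not shown. At H2-Ab1 -5.5 kb HDAC3 had peaks with IL-4 alone, and at Ciita 2.5 kb p65 had peaks in ctrl/ctrl alone. A single factor was found at 16 elements. H2-Aa, H2-Eb1, H2-DMa and H2-DMb1 had no element with all 6.

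**Figure D1:**
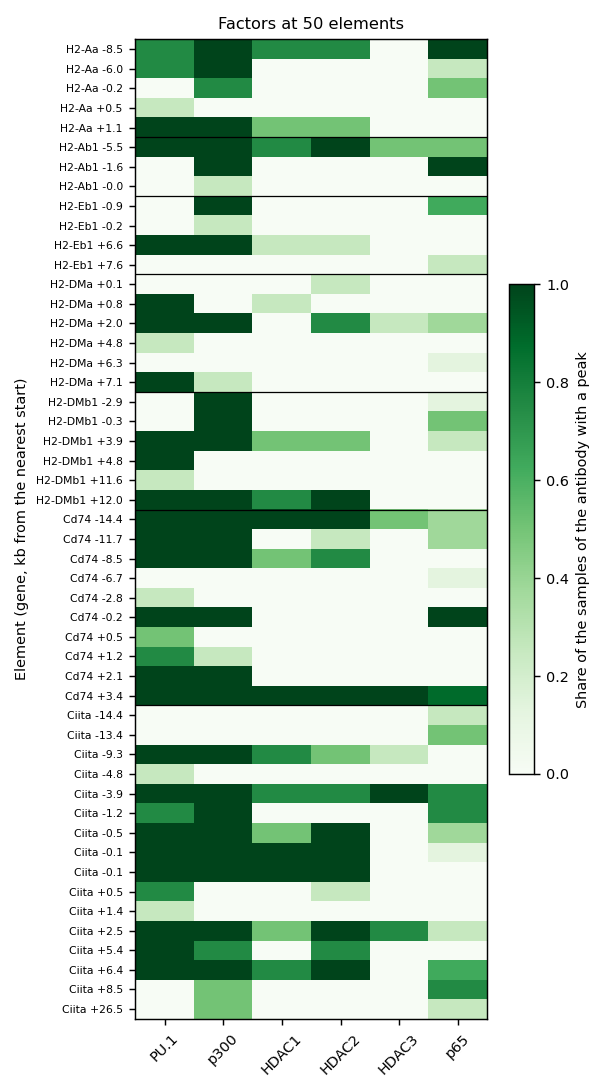
Share of the samples of each antibody (4 samples each, 8 for p65; colour scale from 0 to 1) with a peak at each of 50 elements of the 7 genes. Rows are elements named by gene and by kb from the nearest start, columns are factors; 5 rows have a peak of all 6 factors in at least 1 sample.

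RNAPII at the 7 genes did not pass the test after 1 hr of IL-4. For RNAPII-pS5, 0.475% of 13481 genes were called and 0 of the 7, with none at an unadjusted p of at most 0.05. Cd74 scored 73.2 and 72.8 with IL-4 and 76.0 and 62.1 without. H2-Aa scored 87.8 and 76.7 with IL-4 and 101.1 and 64.7 without, and these ranges overlapped. The smallest p was that of H2-Ab1, with 72.3 and 78.3 against 75.5 and 48.8 before centring and a log2 difference of 0.36 ± 0.15 (SE, n = 2 per group, adjusted p = 0.324 in limma). Ciita scored 52.2 and 39.4 with IL-4 and 71.9 and 36.6 without. H2-Eb1 scored 52.2 and 55.4 against 48.9 and 49.2, H2-DMb1 43.7 and 45.2 against 59.6 and 41.9, and H2-DMa 19.5 and 16.5 against 22.3 and 28.5. The median log2 difference of the 7 genes was 0.07, beside -0.01 over all genes.

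For RNAPII-pS2, 0.104% of 10617 genes were called and 0 of the 7, with 1 at an unadjusted p of at most 0.05. That gene was H2-Aa, with scores of 35.2 and 44.8 in the samples labelled IL-4 1 hr and 20.9 and 32.6 in those labelled untreated (adjusted p = 0.163 in limma). The other 6 had adjusted p from 0.367 (H2-Eb1) to 0.943 (H2-DMb1), with 0.409 for Ciita, 0.47 for H2-DMa, 0.744 for Cd74 and 0.844 for H2-Ab1 in limma. Of the gene lists followed with the 7 genes, only Socs1, an inhibitor of cytokine signalling, was called in RNAPII-pS5 (log2 difference 1.79 ± 0.11, adjusted p = 0.0183 in limma), and no list gene was called in RNAPII-pS2.

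H3K27Ac rose at Cd74 within 1 hr of IL-4. The gene signal of Cd74 was 90.4 and 93.4 with IL-4 and 48.8 and 40 without, a log2 difference of 1.06 ± 0.13 (SE, n = 2 per group, adjusted p = 0.00772 in limma). It was the 1 call among the 6 members with H3K27Ac, where 36.2% of 13035 genes were called. H2-DMa had no H3K27Ac region. The other 5 had log2 differences of -0.51 (Ciita), -0.07 (H2-Aa), 0.19 (H2-Ab1), -0.01 (H2-DMb1) and -0.075 (H2-Eb1), and the median of the 6 was -0.04, beside -0.01 over all genes.

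The Cd74 signal came from 1 intergenic region, 14.5 kb upstream of the start, which was called as a region too (log2 difference 1.11 ± 0.12, adjusted p = 0.00544 in limma). Of all H3K27Ac regions 43.3% of 28929 were called, and of the members 2 of 10. The other was a Ciita region 4.0 kb upstream of the start, which scored 219.2 and 199.3 in the untreated samples and was listed in neither IL-4 sample (adjusted p = 0.000113 in limma). IL-4 replicate 1 instead had a region 143 bp upstream of the start with a signal of 229.8, which none of the other 3 samples had. At the Ciita start of NM_007575 the signal was 125.5 and 131.9 with IL-4 and 164.5 and 143.1 without, and at H2-Aa -8.6 kb it was 141.4 and 143.0 against 158.7 and 140.0.

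Of the factors profiled after 1 hr of IL-4, p300 alone had called regions, at the 7 genes and over all regions alike. Of 67229 p300 regions 13.9% were called, 7475 higher and 1889 lower. Of the 30 at the members 5 were called, a share near that over all regions, and all 5 were higher with IL-4. The median log2 difference was 0.36 at the members and 0.22 over all regions. Ciita held 3 of the 5 and Cd74 the other 2.

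The Ciita -9.3 kb region (chr16:10470458-10471076) scored 99.1 and 92.2 with IL-4 and 4.90 and 11.2 without, a log2 difference of 3.02 ± 0.23 (adjusted p = 0.0145 in limma). The Ciita 26.5 kb region (chr16:10515931-10516605) scored 63.7 and 72.8 with IL-4 and had no peak in either untreated sample (adjusted p = 0.0139 in limma). At the first Ciita start the region 146 bp upstream scored 72.3 and 74.7 with IL-4 and 14.1 and 44.9 without (log2 difference 0.87 ± 0.12, adjusted p = 0.0325 in limma). In these 3 regions all IL-4 samples stood above all untreated samples. Of all p300 regions, 60.2% had no overlap between the groups. The last of the 3 was no longer called without IL-4 replicate 1 (log2 difference 0.887) or replicate 2 (0.868).

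Cd74 3.4 kb, in intron 1, had the highest p300 scores of the set with IL-4, 200.7 and 193.1, against 29.3 and 75.5 without (log2 difference 1.396 ± 0.157, adjusted p = 0.0239 in limma). Cd74 -14.4 kb, in the region where H3K27Ac rose, scored 120.0 and 140.0 with IL-4 and 22.1 and 59.9 without (log2 difference 1.16 ± 0.15, adjusted p = 0.03 in limma). Untreated replicate 1 was the lowest sample at both Cd74 regions. Its scores were low over all regions, and with no centring of the samples 0 of the 30 member regions were called (adjusted p between 0.0601 and 0.526 in limma for these 5), although the differences of the 4 with peaks in both groups were larger, 1.54 to 3.69.

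At other strong p300 regions the raw scores were higher with IL-4 too, but after centring the differences were small. H2-Ab1 -5.4 kb scored 91.3 and 104.7 with IL-4 and 36.1 and 72.1 without, H2-Aa -8.5 kb scored 98.3 and 79.1 against 27.2 and 66.9, and the highest Ciita region, at 6.4 kb, scored 164.5 and 172.4 against 55.1 and 119.6. Their log2 differences were 0.27, 0.38 and 0.38, and none was called (adjusted p from 0.301 to 0.545 in limma). Ciita -1.1 kb was the region with the lowest adjusted p among those that were lower with IL-4, at 7.57 and 6.66 against 7.14 and 29.5 (log2 difference -1.70 ± 0.37, adjusted p = 0.0591 in limma). H2-Eb1 -0.9 kb scored 37.0 and 26.1 with IL-4 and 8.08 and 26.0 without. H2-DMb1 had its highest p300 region at 3.9 kb (44.7 and 49.9 against 12.8 and 39.9), and H2-DMa its highest at 2.0 kb, where the 4 scores lay between 5.60 and 12.5.

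PU.1, the lineage factor, had peaks in untreated and IL-4 samples at 4 of the 5 elements where p300 was called. Of 67996 PU.1 regions 0% were called, with 8592 at an unadjusted p of at most 0.05, and of the 29 at the members 0 were called and 2 had such a p, both higher with IL-4. Ciita -9.3 kb scored 34.3 and 28.9 with IL-4 and 14.5 and 6.67 without (log2 difference 1.34 ± 0.37, adjusted p = 0.357 in limma). Cd74 3.6 kb scored 128.2 and 98.0 with IL-4 and 60.7 and 40.1 without (log2 difference 0.85 ± 0.21, adjusted p = 0.357 in limma). At both, the groups did not overlap, as at 39.6% of all PU.1 regions. The H2-Ab1 -5.5 kb region was among the strongest, at 121.0 and 114.3 with IL-4 and 87.6 and 93.8 without, and so was Ciita -3.9 kb, at 113.8 and 81.7 against 92.0 and 54.7. No PU.1 peak was listed in any of the 4 samples at the Ciita 26.5 kb element, nor at the p300 elements H2-Eb1 -0.9 kb and H2-Ab1 -1.6 kb.

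The deacetylases gave no calls at any gene. For HDAC1, 0% of 27384 regions were called (4348 at an unadjusted p of at most 0.05), and 0 of 14 at the members. For HDAC2, 0% of 24751 regions were called (3578 at such a p), and 0 of 18 at the members. For HDAC3, 0% of 12567 regions were called (2700 at such a p), and 0 of 5 at the members. HDAC2 at Ciita -9.3 kb had peaks of 8.72 and 8.88 with IL-4 and none without (adjusted p = 0.291 in limma). HDAC3 at Ciita -4.0 kb scored 17.6 and 13.7 with IL-4 and 7.87 and 4.72 without (log2 difference 1.06 ± 0.32, adjusted p = 0.158 in limma). At H2-Ab1 -5.3 kb HDAC3 scored 4.94 and 6.44 with IL-4 and had no peak without (adjusted p = 0.104 in limma). All 5 HDAC3 regions at the members had a difference above 0, where 57% of all HDAC3 regions did. HDAC1 was highest at Cd74 3.6 kb, with 20.4 and 11.0 against 14.4 and 13.95.

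**Figure D2:**
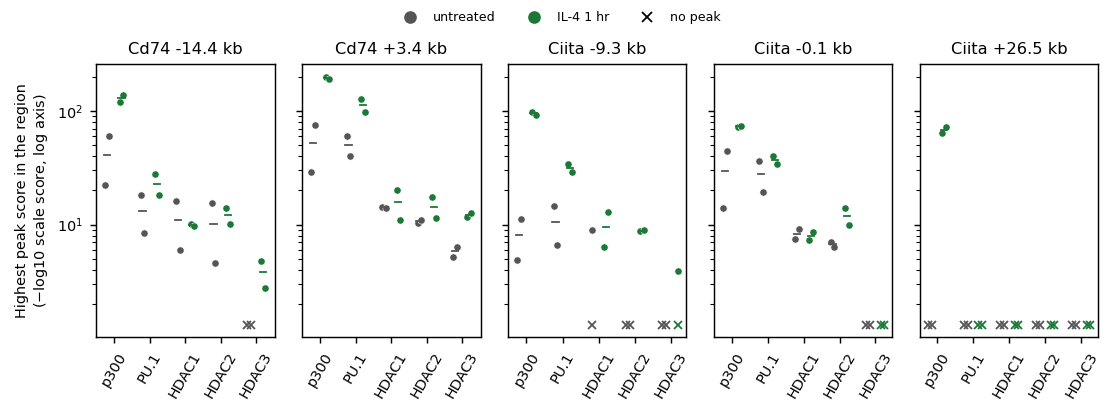
Highest peak score (log axis, -log10 scale) of p300, PU.1, HDAC1, HDAC2 and HDAC3 in untreated (grey) and IL-4 1 hr (green) BMDMs at the 5 regions where p300 was called, 2 samples per group as points, their mean as a bar, crosses for samples with no peak. The p300 points with IL-4 lie above those without in all 5 panels, and at Ciita 26.5 kb no other of these factors had a peak.

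RNAPII-pS5 peaks at H2-Aa and H2-DMa were absent after LPS alone and present after LPS in cells pretreated with IL-4. The ctrl/LPS samples also had the fewest RNAPII-pS5 peaks of the 8 in all, 14476 and 15349 against 17826 to 22149, and the part of this in the absent peaks was not tested. For RNAPII-pS5 in ctrl/LPS against ctrl/ctrl, 29.9% of 12477 genes were called (1303 higher, 2425 lower), and of the 7 members 2, both lower. The median difference of the members was -1.11, beside -0.41 over all genes. H2-Aa, the alpha chain of I-A, scored 22.2 and 18.2 in ctrl/ctrl and had no RNAPII-pS5 peak in either ctrl/LPS sample (adjusted p = 0.00321 in limma). H2-DMa scored 7.30 and 13.5 in ctrl/ctrl and again had no peak in ctrl/LPS (adjusted p = 0.0127 in limma, 0.066 without ctrl/ctrl replicate 2).

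The other 5 members were not called. H2-Eb1, the beta chain of I-E, scored 5.79 and 6.70 in ctrl/ctrl, and in ctrl/LPS 1 sample scored 3.03 and the other had no peak (adjusted p = 0.097 in limma). H2-Ab1, the beta chain of I-A, scored 5.25 and 3.76 in ctrl/ctrl and in ctrl/LPS had 1 peak of 6.40 and none in the other sample. H2-DMb1 had a peak in 1 of the ctrl/ctrl samples (6.76) and none in ctrl/LPS. Cd74, with 20.4 and 21.9 against 21.04 and 17.0 in ctrl/LPS, and Ciita, with 10.4 and 6.31 against 12.9 and 7.33, overlapped between the conditions.

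IL-4 PT/LPS against ctrl/LPS gave 13.8% of the genes as called, and 2 of the 7 members, both higher. Their median difference was 1.51, beside 0.03 over all genes. H2-Aa scored 10.6 and 22.6 in IL-4 PT/LPS, where ctrl/LPS had no peak (adjusted p = 0.00768 in limma). H2-DMa scored 26.1 and 12.3, where ctrl/LPS had none (adjusted p = 0.0117 in limma, 0.0523 without IL-4 PT/LPS replicate 1). H2-Eb1 scored 10.2 and 9.06 against 1 peak of 3.03 (adjusted p = 0.0513 in limma), and H2-Ab1 10.1 and 8.92 against 1 peak of 6.40. Cd74 scored 30.6 and 32.9 against 21.04 and 17.0, and Ciita 18.01 and 18.8 against 12.9 and 7.33. In both the groups did not overlap, as for 47.4% of all genes, and neither was called (adjusted p = 0.223 and 0.382 in limma).

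H2-DMb1 went its own way. It had no RNAPII-pS5 peak in either IL-4 PT/LPS sample, although IL-4 PT/ctrl had scores of 9.80 and 12.6. Its paralog H2-DMb2 is nearly identical, so reads may be split between them and both values are uncertain. RNAPII-pS5 at H2-DMb2 was higher in ctrl/LPS than in ctrl/ctrl (log2 difference 1.43 ± 0.39, adjusted p = 0.0346 in limma) and lower in IL-4 PT/LPS than in ctrl/LPS (log2 difference -1.63 ± 0.39, adjusted p = 0.0409 in limma).

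Part of the H2-DMa score came from peaks at 34122965 to 34123781 on chromosome 17, which the lists annotate as the promoter of NM_001204973, the neighbouring gene Brd2 on the opposite strand. For RNAPII in the LPS experiment these peaks occurred in the IL-4 PT/LPS samples alone (18.7 and 7.09 for RNAPII-pS5). Without them H2-DMa still had an intron 1 peak in both IL-4 PT/LPS samples (7.31 and 5.22) and stayed called (adjusted p = 0.0413 in limma).

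IL-4 PT/ctrl against ctrl/ctrl gave 9.24% of the genes as called in RNAPII-pS5 and 0 of the 7, although all 7 had a difference above 0, where 48.8% of all genes did. Their median was 0.84, beside 0 over all genes. Cd74 scored 33.3 and 35.9 against 20.4 and 21.9 (log2 difference 0.63 ± 0.21, adjusted p = 0.139 in limma). Ciita scored 21.3 and 17.7 against 10.4 and 6.31 (log2 difference 1.19 ± 0.40, adjusted p = 0.139 in limma). H2-Aa scored 28.4 and 42.2 against 22.2 and 18.2, and H2-Ab1 13.6 and 11.0 against 5.25 and 3.76. H2-Eb1 scored 13.6 and 10.2 against 5.79 and 6.70, and H2-DMa 13.1 and 18.7 against 7.30 and 13.5. For all members but H2-DMa the centred scores of the 2 conditions did not overlap, as for 49.1% of all genes.

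The IL-4 by LPS interaction, which asks whether the IL-4 difference changes with LPS, was called for 7.01% of the genes and for 0 of the 7. The smallest adjusted p was that of H2-Aa (0.0555 in limma), followed by H2-DMa (0.0699 in limma). It was 0.354 for H2-DMb1, 0.378 for H2-Eb1, 0.604 for Ciita, 0.779 for Cd74 and 0.963 for H2-Ab1 in limma. The IL-4 effect on these genes is thus not shown to differ between cells with and without LPS.

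**Figure D3:**
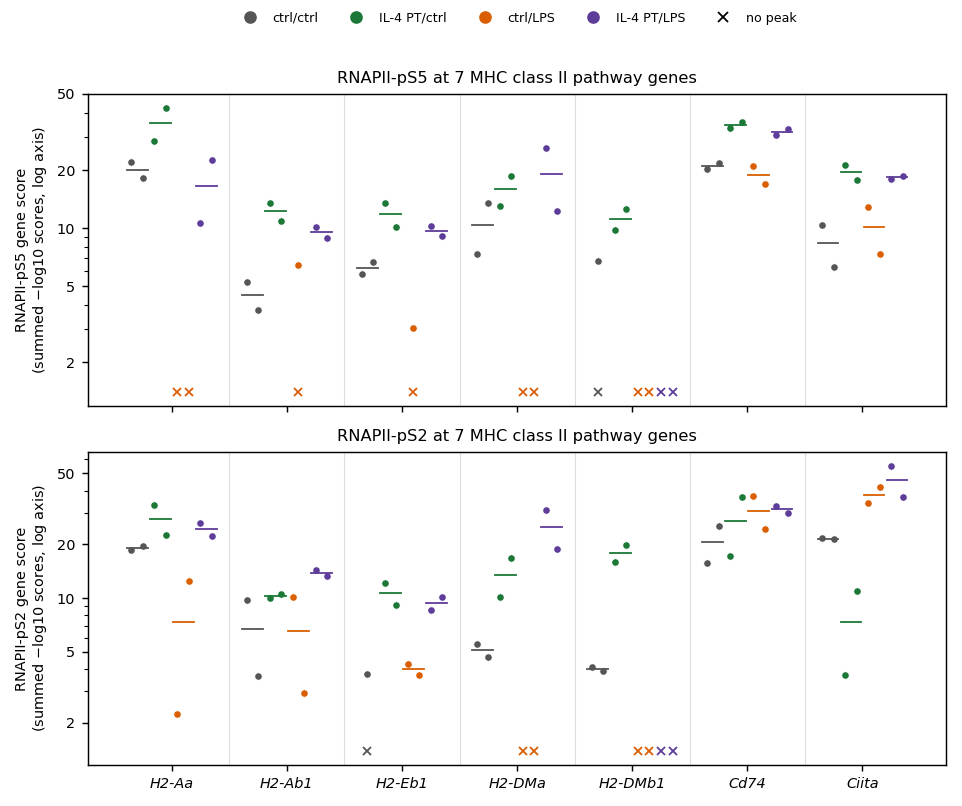
Gene scores (summed -log10 peak scores, log axis) of RNAPII-pS5 (top) and RNAPII-pS2 (bottom) at the 7 genes in ctrl/ctrl (grey), IL-4 PT/ctrl (green), ctrl/LPS (orange) and IL-4 PT/LPS (purple), 2 samples per condition as points, their mean as a bar where both had a peak, crosses for samples with no peak. The ctrl/LPS crosses at H2-Aa and H2-DMa stand beside IL-4 PT/LPS points of 10.6 to 26.1 for RNAPII-pS5, and H2-DMb1 has crosses in both LPS conditions.

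Elongating RNAPII gave a partly different picture. For RNAPII-pS2 in ctrl/LPS against ctrl/ctrl, 31.5% of 13663 genes were called and 2 of the 7, both lower. H2-DMa scored 5.54 and 4.66 in ctrl/ctrl and had no peak in ctrl/LPS (adjusted p = 0.0179 in limma). H2-DMb1 scored 4.09 and 3.93 in ctrl/ctrl, each from 1 intergenic peak about 12 kb from its start, and had none in ctrl/LPS (adjusted p = 0.0171 in limma). Both calls were lost when any single sample of these conditions was left out (adjusted p between 0.0557 and 0.0686 in limma). H2-Aa scored 18.7 and 19.5 against 2.23 and 12.4 (adjusted p = 0.082 in limma), with no overlap, as for 63.6% of all genes. Ciita scored 34.1 and 41.9 in ctrl/LPS, above 21.8 and 21.3 in ctrl/ctrl (log2 difference 0.59 ± 0.47, adjusted p = 0.379 in limma). Cd74 scored 37.5 and 24.3 in ctrl/LPS against 15.7 and 25.3, H2-Ab1 10.1 and 2.93 against 9.70 and 3.68, and H2-Eb1 4.30 and 3.72 against 1 peak of 3.74. The median difference of the 7 was -0.36, beside -0.19 over all genes.

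IL-4 PT/LPS against ctrl/LPS gave 10.2% of the genes as called in RNAPII-pS2 and 1 of the 7, H2-DMa, with scores of 31.3 and 18.9 against no peak (adjusted p = 0.00678 in limma, 0.0119 without the Brd2 promoter peaks, and 0.0576 and 0.0511 without IL-4 PT/LPS replicate 1 or 2). H2-Aa scored 26.3 and 22.3 against 2.23 and 12.4 (log2 difference 2.16 ± 0.77, adjusted p = 0.132 in limma). H2-Eb1 scored 8.54 and 10.2 against 4.30 and 3.72, and H2-Ab1 14.4 and 13.3 against 10.1 and 2.93. Cd74 was level, at 32.8 and 29.9 against 37.5 and 24.3, and Ciita scored 54.6 and 36.6 against 34.1 and 41.9. H2-DMb1 again had no peak in either condition. The median of the 7 was 1.18, beside 0 over all genes.

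IL-4 PT/ctrl against ctrl/ctrl gave 19.6% of the genes as called in RNAPII-pS2 and 3 of the 7, of which 2 were higher and 1 was lower. H2-DMb1 scored 15.9 and 19.8 against 4.09 and 3.93, with peaks in intron 1 in the IL-4 samples (log2 difference 2.21 ± 0.37, adjusted p = 0.00863 in limma). H2-Eb1 scored 12.2 and 9.12 against 1 peak of 3.74 (adjusted p = 0.035 in limma). Ciita was the lower one, at 3.73 and 10.96 against 21.8 and 21.3 (log2 difference -1.69 ± 0.47, adjusted p = 0.0479 in limma). The Ciita and H2-Eb1 calls were each lost in 7 of 8 fits that left out 1 sample, with adjusted p up to 0.158 and 0.132 in limma, while that of H2-DMb1 was kept in all 8. H2-DMa scored 10.1 and 16.9 against 5.54 and 4.66 (adjusted p = 0.0726 in limma). H2-Ab1 scored 10.1 and 10.6 against 9.70 and 3.68, H2-Aa 33.0 and 22.5 against 18.7 and 19.5, and Cd74 17.3 and 36.6 against 15.7 and 25.3. For Ciita, then, 24 hr of IL-4 went with higher RNAPII-pS5 scores and lower RNAPII-pS2 scores, and only the second passed the test. The interaction was called for 6.88% of the genes in RNAPII-pS2 and for 0 of the 7, with H2-DMb1 nearest to a call (adjusted p = 0.0546 in limma). It was 0.0633 for H2-DMa, 0.14 for Ciita, 0.424 for H2-Aa, 0.44 for H2-Eb1, 0.722 for Cd74 and 0.825 for H2-Ab1 in limma.

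Ciita had more p65 regions than any other member, and more called ones. Of the 24 p65 regions at the 7 genes, 9 were at Ciita, 5 at Cd74, 3 at H2-Aa, 2 each at H2-Ab1, H2-Eb1 and H2-DMb1, and 1 at H2-DMa. In ctrl/LPS against ctrl/ctrl 32.8% of 37564 regions were called, 10980 of them higher and 1352 lower. Of the 24 regions 10 were called, 6 higher and 4 lower. They included all regions at H2-Ab1 and only part of those at Ciita. The median difference was 0.59 at the members and 0.72 over all regions.

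At Ciita, LPS went with new p65 peaks inside the gene. The 8.5 kb region (chr16:10498063-10498592), in the window with 3 NF-kB matches above, scored 47.7 and 38.0 in ctrl/LPS and had no peak in ctrl/ctrl (adjusted p = 0.00152 in limma). The -1.2 kb region (chr16:10486749-10487283), before the second start, scored 16.5 and 17.2 in ctrl/LPS and had none in ctrl/ctrl (adjusted p = 0.000302 in limma). The -13.4 kb region scored 3.45 and 5.47 in ctrl/LPS and had none in ctrl/ctrl (adjusted p = 0.0331 in limma, and up to 0.104 when ctrl/LPS replicate 2 or a ctrl/ctrl sample was left out). The 2.4 kb region went the other way, with 3.55 and 5.02 in ctrl/ctrl and no peak in the other 3 conditions (adjusted p = 0.000621 in limma).

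In the class II region itself p65 both appeared and fell with LPS. H2-Ab1 -5.5 kb scored 7.31 and 9.58 in ctrl/LPS and had no peak in ctrl/ctrl (adjusted p = 0.00119 in limma), and H2-DMb1 -257 bp scored 9.31 and 6.80 against none (adjusted p = 0.00179 in limma). H2-Aa -208 bp, at the promoter shown above, scored 11.4 and 5.22 in ctrl/ctrl and had no peak in ctrl/LPS (adjusted p = 0.00267 in limma). H2-Ab1 -1.5 kb scored 24.6 and 16.9 in ctrl/ctrl and 11.2 and 8.34 in ctrl/LPS (log2 difference -2.12 ± 0.30, adjusted p = 0.00392 in limma). H2-Aa -8.6 kb scored 32.9 and 42.2 in ctrl/ctrl and 30.3 and 28.7 in ctrl/LPS (log2 difference -1.38 ± 0.31, adjusted p = 0.0206 in limma), and that call was lost without ctrl/LPS replicate 1, ctrl/LPS replicate 2 or ctrl/ctrl replicate 2 (adjusted p up to 0.0977 in limma). The last 2 differences are relative to the other p65 regions, whose scores were higher with LPS, and with no centring the H2-Aa -8.6 kb difference was -0.34 (adjusted p = 0.495 in limma). Both windows hold an NF-kB match. Cd74 2.9 kb scored 4.93 and 11.4 in ctrl/LPS and had no peak in ctrl/ctrl (adjusted p = 0.0201 in limma, and up to 0.0719 without a ctrl/ctrl sample).

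IL-4 alone for 24 hr changed p65 at few regions. In IL-4 PT/ctrl against ctrl/ctrl 5.84% of the regions were called, and 5 of the 24 at the members. The promoter region of Cd74, 127 bp upstream, scored 38.5 and 36.8 in IL-4 PT/ctrl and 10.3 and 14.3 in ctrl/ctrl (log2 difference 1.83 ± 0.24, adjusted p = 0.0128 in limma). It was the one region called higher with IL-4 alone that had a peak in all 8 samples. Ciita -1.2 kb scored 6.89 and 5.56 and Ciita 8.5 kb 5.33 and 13.1 in IL-4 PT/ctrl, both with no peak in ctrl/ctrl (adjusted p = 0.00183 and 0.0178 in limma). Ciita -3.9 kb scored 5.69 and 6.61 in ctrl/ctrl and had no peak in IL-4 PT/ctrl (adjusted p = 0.0162 in limma), and Ciita 2.4 kb was lost as well (adjusted p = 0.0031 in limma). Leaving out a ctrl/ctrl sample ended the calls at Ciita -3.9 kb (adjusted p up to 0.0624 in limma) and 8.5 kb (up to 0.0616), and for 8.5 kb a ctrl/LPS sample did so too (up to 0.0643).

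With both stimuli p65 was higher than with LPS alone at 5 of the 24 regions and lower at 0. Over all regions 28.9% were called, 8831 higher and 2015 lower. The IL-4 PT/LPS samples also had more p65 peaks in all, 36738 and 38955 against 26305 and 26820 in ctrl/LPS. The part of this in the higher scores was not tested. The median difference was 0.92 at the members and 0.36 over all regions. Ciita held 4 of the 5. The -13.4 kb region (chr16:10466464-10466865) scored 27.7 and 42.9 in IL-4 PT/LPS and 3.45 and 5.47 in ctrl/LPS (log2 difference 2.72 ± 0.31, adjusted p = 0.00209 in limma). The -1.2 kb region scored 44.8 and 51.9 against 16.5 and 17.2 (log2 difference 1.25 ± 0.19, adjusted p = 0.0058 in limma, and 0.0602 and 0.0716 without IL-4 PT/LPS replicate 1 or 2). The -14.4 kb region scored 6.40 and 6.68 and had no peak elsewhere (adjusted p = 0.000336 in limma). The -499 bp region, at the third start, scored 11.0 and 20.4 against 1 peak of 5.31 (adjusted p = 0.0478 in limma, lost in 7 of 8 fits without 1 sample, up to 0.25).

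The Ciita 6.5 kb region (chr16:10495996-10496517), where the STAT6 and PU.1 letters coincide, fell just outside the threshold. It scored 60.2 and 64.5 in IL-4 PT/LPS, 8.54 and 5.96 in ctrl/LPS, 4.63 and no peak in IL-4 PT/ctrl and none in ctrl/ctrl (log2 difference between the LPS conditions 2.86 ± 0.80, adjusted p = 0.0504 in limma). Ciita 26.6 kb, the element where p300 appeared with IL-4, had p65 peaks in IL-4 PT/LPS alone, of 2.88 and 9.96. Ciita 8.5 kb scored 46.0 and 70.6 in IL-4 PT/LPS, which overlapped the 47.7 and 38.0 of ctrl/LPS.

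Outside Ciita, H2-Eb1 7.6 kb, in intron 2, had p65 peaks of 10.3 and 6.62 in IL-4 PT/LPS and none in the other 6 samples (adjusted p = 0.00318 in limma). H2-DMb1 -257 bp scored 16.3 and 13.7 against 9.31 and 6.80 in ctrl/LPS, and H2-Ab1 -5.5 kb 12.3 and 10.5 against 7.31 and 9.58. H2-Aa -208 bp had no p65 peak in either LPS condition, while IL-4 PT/ctrl scored 9.52 and 7.89. At the Cd74 promoter IL-4 PT/LPS scored 34.6 and 26.7 and ctrl/LPS 20.8 and 24.8.

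**Figure D4:**
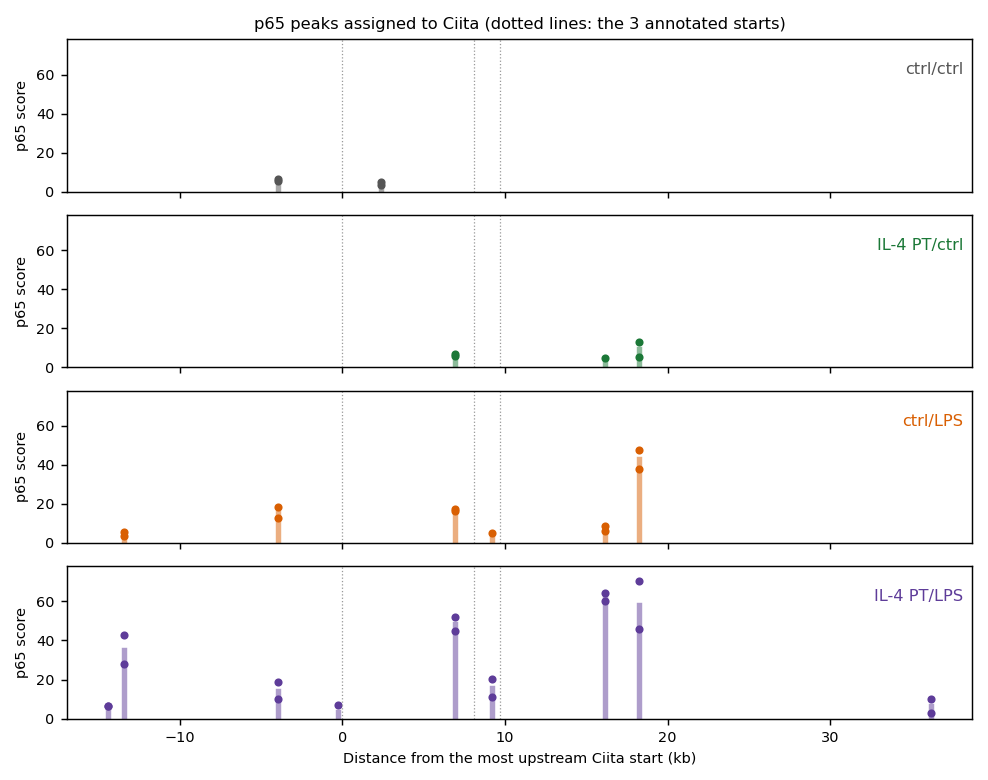
p65 peak scores (-log10 scale, linear axis) at the regions assigned to Ciita in the 4 conditions, against the distance in kb from the most upstream Ciita start. Points are the 2 samples, bars the mean with an absent peak as 0, dotted lines the 3 annotated starts; peaks of 60.2 and 64.5 near 16 kb, the region 6.5 kb from its nearest start, stand out in IL-4 PT/LPS.

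The interaction for p65 was called at 23.5% of the regions and at 8 of the 24, of which 6 were at Ciita, 1 at H2-Eb1 and 1 at Cd74. At Ciita -14.4 kb, Ciita -13.4 kb and H2-Eb1 7.6 kb p65 was higher with IL-4 in the LPS conditions, while neither condition without LPS had a peak. At Ciita -3.9 kb and 2.4 kb the IL-4 difference was negative without LPS and closer to 0 with it (-0.43 at -3.9 kb, and no peak in either LPS condition at 2.4 kb). At the Cd74 promoter the interaction was negative, since p65 was higher with IL-4 by more without LPS than with it. It was also negative at Ciita -1.2 kb and 8.5 kb, but ctrl/ctrl had no peak there. Their IL-4 difference without LPS is thus counted from the floor. With the floor 4 times as high the interaction at Ciita -1.2 kb was 0.27, so its direction is not settled. With no centring the calls at Ciita -1.2 kb (adjusted p = 0.113 in limma) and 8.5 kb (0.0625) were lost.

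The genes around the pathway were followed as lists, by how many of their tested genes were called in each comparison. Their log2 differences are given even where a group may lack a peak, and such sizes depend on the floor. Over all genes, RNAPII-pS5 was called for 29.9% (ctrl/LPS against ctrl/ctrl), 13.8% (IL-4 PT/LPS against ctrl/LPS) and 9.24% (IL-4 PT/ctrl against ctrl/ctrl). For RNAPII-pS2 the last 2 shares were 10.2% and 19.6%. For RNAPII-pS5 in ctrl/LPS against ctrl/ctrl, class I antigen presentation had 3 of 9 higher and 2 lower. Tap1, which carries peptides into the endoplasmic reticulum, had a log2 difference of 3.51, Nlrc5, the class I counterpart of Ciita, 2.28, and Tapbp, which links the peptide transporter to class I, -2.71. Antigen processing and costimulation had 2 of 10 higher and 4 lower, among them March1, the ubiquitin ligase of class II (1.98), the lysosomal reductase Ifi30 (-2.34) and the protease Ctsd (-2.09). The interferon factors upstream of Ciita had 2 of 9 higher and 1 lower (Socs1 2.64, Irf1 0.57, Ifngr1 -1.64). Of the RFX, NF-Y and CREB factors 1 of 7 was lower, Rfxank (-1.83), and of the other class II genes of the locus 2 of 5 were higher, H2-Ob (1.47) and H2-DMb2 (1.43). The list medians were 0.44, -0.49, 0.21, -1.005 and 0.63, beside -0.41 over all genes.

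In IL-4 PT/LPS against ctrl/LPS the same lists had few calls in RNAPII-pS5. Rfx5, a subunit of the X box factor (3.09), Ifi30 (2.90) and Tapbp (2.95) were the 1 higher gene of their lists, and Usf1 (-1.76) and H2-DMb2 (-1.63) the 1 lower gene. The medians lay between -0.39 and 0.19, beside 1.51 for the 7 members and 0.03 over all genes. In IL-4 PT/ctrl against ctrl/ctrl Socs1 (2.56), March1 (2.74) and Rfxap (1.51) were higher and Rfxank (-1.83) lower, with 0 of 9 class I genes and 0 of 5 other class II genes called. Socs1 had a called interaction (-2.93). For RNAPII-pS2, IL-4 PT/LPS against ctrl/LPS gave 1 call in these lists, the protease Lgmn (-0.69), and IL-4 PT/ctrl against ctrl/ctrl gave 5, of which Rfxap (3.08), Nfyb (1.86), Socs1 (2.25) and Ctsl (0.80) were higher and Irf1 (-0.49) lower.

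Markers of other cells were summed in the same way. The summed RNAPII-pS5 score of 6 B cell markers was 82.0 to 92.4 in IL-4 PT/ctrl, 41.7 to 60.9 in ctrl/ctrl, 48.3 to 50.5 in ctrl/LPS and 49.4 to 50.8 in IL-4 PT/LPS, where 4 of the 6 had a peak in any sample and Pax5 and Ebf1 had none. That of the 6 dendritic cell markers was 67.7 to 77.1, 91.5 to 101.4, 73.4 to 80.3 and 77.1 to 84.1 in the same order, with no peak at Zbtb46 or Cd209a. That of the neutrophil and progenitor markers was 36.0 to 39.8 in ctrl/LPS, 40.5 to 44.3 in IL-4 PT/LPS, 9.24 to 22.6 in ctrl/ctrl and 0 to 9.24 in IL-4 PT/ctrl. T cell markers ran from 17.1 to 40.6, with none at Cd3e. The macrophage markers ran from 525.2 to 568.1 in ctrl/ctrl, 385.3 to 413.7 in IL-4 PT/ctrl, 312.0 to 364.8 in ctrl/LPS and 284.9 to 314.7 in IL-4 PT/LPS. Of the 6 of them tested, 3 were called lower in ctrl/LPS than in ctrl/ctrl. Of 4 B cell markers tested, 1 was called higher in IL-4 PT/ctrl than in ctrl/ctrl, with a median log2 difference of 0.151. In RNAPII-pS2 the B cell sum showed no such rise, at 86.8 to 114.66 in IL-4 PT/ctrl and 110.54 to 120.4 in ctrl/ctrl. The dendritic cell sum in RNAPII-pS2 was 145.43 to 175.7 in IL-4 PT/ctrl and 201.96 to 217.08 in ctrl/ctrl. With LPS it was higher, 275.09 to 286.6 in ctrl/LPS and 320.95 to 349.05 in IL-4 PT/LPS. The part of these scores in the class II values was not tested, and in such samples fewer cells of a type and less binding per cell cannot be told apart.

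Across all 56 samples the members did not move as 1 block. The centred gene score of each member, as a deviation from the mean of its antibody and experiment, was set against the mean of the other 6. Pearson's r was 0.61 for H2-DMa, 0.44 for H2-Eb1, 0.34 for H2-Aa, 0.30 for H2-Ab1, 0.19 for H2-DMb1, 0.18 for Cd74 and -0.16 for Ciita. Of 11254 genes, each with peaks in 28 samples or more, those most like the mean of the 7 were Isy1 (r = 0.77), Agphd1 (0.77), Rpl19 (0.76), Trap1 (0.76) and Trak1 (0.76). The points share antibodies, conditions and peak numbers, so these values are a description.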

How the data were processed

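ChIP-seq peak lists of 56 samples were analysed, 1 list per sample. Per the labels and the methods of the study, the authors aligned reads to mm10 with BWA 0.7.10, called peaks with MACS2 2.0.10 and annotated them with HOMER 4.2. In 52 lists the deposited peak score is on the -log10 scale of the MACS2 significance, and in the 4 H3K27Ac lists it is the HOMER tag signal, normalised by the authors. Each sample was called separately. Reads were not used here, so sequencing depth is not known, and peak numbers are given in its place. Log2 scores are not a linear measure of occupancy.

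Gene scores were summed per gene and region scores taken over peaks that overlap by at least 1 bp. Genes or regions with a peak in at least 2 samples were tested with limma 3.58.1 (R 4.3.3, eBayes with trend, two-sided, Benjamini-Hochberg). Log2 scores were shifted so that all samples shared the median of the features found in all of them, and an absent peak was then set to the lowest score of the antibody. That order was chosen after seeing the data, so that an absent peak has 1 value in all samples. The labels do not say that replicates were separate cultures, while the figure legends of the study call them independent biological replicates. The p-values measure only the spread between these samples. Replicate numbers did not pair the samples. The code was tested on simulated data. All 7 members were named in every comparison, with every called region and at most 4 called genes per list. The results of 1 list gene are not reported here. The members and lists were chosen with earlier results of these data known. Up to 0.938% of the peaks of a MACS2 list score under 2, the stated limit.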

Additional observations from a re-analysis of the deposited data

Results flagged for a closer look

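At 8 of the 24 p65 regions the limma interaction was called, beside 23.5% of all p65 regions. It asks whether the difference between IL-4 pretreated and not pretreated cells itself differs between cells with and without LPS. Absent peaks were set to the lowest score, so the sizes depend on that floor. At Ciita -14.4 kb, Ciita -13.4 kb and H2-Eb1 7.6 kb neither condition without LPS had a peak. The interaction there repeats the difference between the LPS conditions. At Ciita 2.4 kb neither LPS condition had a peak, so it repeats the IL-4 difference without LPS with the sign turned. At these regions the interaction is not a separate result. Ciita -1.2 kb and 8.5 kb had no peak in ctrl/ctrl, and Ciita -3.9 kb had none in IL-4 PT/ctrl. There the IL-4 difference without LPS is counted from the floor. The interaction was 2.72 at Ciita -13.4 kb (adjusted p = 0.00977), 1.55 at Ciita -14.4 kb (0.00181), 2.33 at Ciita -3.9 kb (0.0346), 2.23 at Ciita 2.4 kb (0.00339) and 1.89 at H2-Eb1 7.6 kb (0.0144). It was -1.73 at Ciita -1.2 kb (0.00828), -3.26 at Ciita 8.5 kb (0.0251) and -1.68 at the Cd74 promoter (0.0209), all in limma. Ciita -14.4 kb and 2.4 kb had a peak in only 2 samples each and could not be refitted without either of them. Leaving out 1 sample is therefore no test of how these calls depend on their peaks. The other 6 were each lost without at least 1 sample, with adjusted p up to 0.0548 at Ciita -13.4 kb, 0.0995 at -3.9 kb, 0.0815 at -1.2 kb and 0.155 at 8.5 kb, 0.054 at H2-Eb1 7.6 kb and 0.103 at the Cd74 promoter.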

How the results depend on the processing

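Each group had 2 samples, depth is not known, and calls that rest on absent peaks depend on the floor. The 46 called member values were refitted under 617 alternatives: 478 kept the call and the direction, 136 lost the call and 3 did not keep the direction. Many of the 46 calls were lost in at least 1 fit that left out a sample. A region with a peak in only 2 samples could not be refitted without either of them, so these fits do not fully test such calls.

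In these 3, Ciita -13.4 kb went to 0 (ctrl/LPS against ctrl/ctrl, with the upper 50% of peaks), and the sign changed at Ciita -3.9 kb (interaction, -0.35 with the upper 50% of peaks) and Ciita -1.2 kb (interaction, 0.27 with the floor 4 times as high). The replicate block moved the count of called members in 3 of 21 comparisons (RNAPII-pS2 in IL-4 PT/ctrl 3 to 2, p300 5 to 4, p65 in IL-4 PT/LPS 5 to 4), none by over 1.5 times, and lost 3 of the 46 calls: Ciita in RNAPII-pS2 (adjusted p = 0.058, limma), Ciita -146 bp in p300 (0.0574) and Ciita -499 bp in p65 (0.0821). Same-numbered samples correlated between -0.05 and 0.06 in 27 pairs.

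Counts of called members follow in the order ctrl/LPS against ctrl/ctrl, IL-4 PT/ctrl against ctrl/ctrl, IL-4 PT/LPS against ctrl/LPS and interaction. The main counts were 2, 0, 2 and 0 for RNAPII-pS5, 2, 3, 1 and 0 for RNAPII-pS2 and 10, 5, 5 and 8 for p65. With the floor 4 times as high they were 1, 1, 0 and 0, then 0, 4, 1 and 1, then 5, 3, 3 and 4. With the upper 50% of peaks they were 0, 1, 0 and 1, then 0, 1, 0 and 1, then 3, 1, 3 and 4. With features that have a peak in every sample alone, they were 0, 0, 0 and 0, then 1, 1, 1 and 1, then 2, 1, 0 and 0. With an unadjusted p of at most 0.05 they were 3, 3, 3 and 2, then 3, 4, 2 and 3, then 11, 5, 9 and 9. Without intergenic peaks RNAPII-pS5 gave 1 for IL-4 PT/ctrl, RNAPII-pS2 gave 2 for IL-4 PT/LPS and 1 for the interaction, and H3K27Ac gene signals gave 0. The highest peak in place of the sum gave 1 for RNAPII-pS2 in IL-4 PT/ctrl. With no centring p65 gave 9 in IL-4 PT/LPS and p300 gave 0. For the 1 hr regions, an unadjusted p gave 1 for RNAPII-pS2, 2 for PU.1, 8 for p300, 1 for HDAC1, 4 for HDAC2 and 3 for HDAC3, the upper 50% of peaks gave 2 for HDAC3, and a 50% overlap to merge gave 4 for H3K27Ac. Setting the floor before the centring, and leaving out the Brd2 promoter peaks, both chosen after seeing the data, left all counts within 1.5 times.

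When 1 sample was left out in turn, the counts ran over these ranges in the same order: 1 to 3, 0 to 1, 1 to 4 and 0 to 0 for RNAPII-pS5, 0 to 2, 1 to 2, 0 to 2 and 0 to 0 for RNAPII-pS2, and 6 to 12, 2 to 6, 1 to 7 and 2 to 7 for p65. At 1 hr they were 1 to 2 for H3K27Ac genes, 1 to 3 for H3K27Ac regions, 0 to 1 for PU.1, 3 to 12 for p300 and 0 to 1 for HDAC2. The 12 p300 calls came without untreated replicate 2. The cause of these changes was not tested.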
